A study of Mus musculus with 24 samples.

Results

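The genes described here make, load and recover the monoamine transmitters: Th, Ddc, Dbh, Tph2, Slc6a2, Slc6a3, Slc6a4 and Slc18a2. They were chosen by gene name and make up 8 of the 54532 genes in the deposited table, and all 8 passed the filter on low values (FPKM above 0 in at least 6 of the 24 mice). RNA of brain hemispheres was sequenced from 24 male wild-type C57Bl6 mice, aged 8 to 12 weeks at the start, in 4 groups of 6 mice. The vehicle group was infused with saline and the angiotensin II group with angiotensin II at 0.7 mg/kg/d, under the skin by osmotic minipump for 14 days. The vehicle + amnion epithelial cells and angiotensin II + amnion epithelial cells groups had the same infusions and, after the pump was implanted, 1000000 human amnion epithelial cells in the tail vein. All mice had the same surgery and anaesthesia, and animals without cells had a saline injection. Angiotensin II infusion is a model of hypertension, and the cells, which come from donated placentae, were a candidate treatment, so the comparisons ask how the infusion and the cells altered brain gene expression.

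Dopamine and noradrenaline are made from tyrosine and serotonin from tryptophan. This takes place largely, but not only, in small groups of neurons in the midbrain and hindbrain whose axons reach most of the brain. A hydroxylase carries out the rate-limiting step, a shared decarboxylase makes the amine, a vesicular carrier loads it, and a transporter in the cell membrane takes it back up after release. The transmitter that a neuron uses is therefore read from which hydroxylase and which transporter it expresses, and these transporters are the targets of stimulants and of many antidepressants. In RNA of a brain hemisphere these cells are a small minority, and fewer cells of a type and less RNA per cell cannot be told apart.

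The libraries held 16536449 to 25308700 reads, as recovered from the FPKM values (fragments scaled to gene length and to the mapped fragments of the library, so that levels of different genes may be compared). All 10 markers of brain cells (neurons, astrocytes, oligodendrocytes, microglia and endothelium) were detected, with a summed level of 1424 to 1883 FPKM per mouse. The summed FPKM over all genes was 338334 to 348597 in 6 libraries and 277116 to 298301 in the other 18, with no value between. The 6 libraries were 2 vehicle, 1 angiotensin II, 1 vehicle + amnion epithelial cells and 2 angiotensin II + amnion epithelial cells mice. All 6 were replicate 5 or 6 of their group, while replicates 1 to 4 of every group were among the 18. The labels name no batch, so the correlations and the comparisons of Slc6a3 are also given for the 18 libraries alone. The library of angiotensin II replicate 4 had 1572 FPKM of the pituitary markers Gh, Prl, Cga and Pomc, against at most 33.0 FPKM in the other 23, and results that rest on it are given without it as well. How the tissue was trimmed is not given in the sources used here. The part of the pituitary signal in any of these correlations and comparisons was not tested.

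Th, tyrosine hydroxylase, carries out the rate-limiting step of dopamine and noradrenaline synthesis and was the most abundant of the 8 genes. It lies on chr7:142892752-142931128 (GRCm38, minus strand), and its mean level was 6.62 FPKM ± 0.97 (SD, n = 24 mice). Ddc, the decarboxylase that dopamine and serotonin neurons share (chr11:11814101-11898144, minus strand), followed at 4.55 FPKM and was below Th in 24 of 24 mice. Slc6a3, the dopamine transporter (chr13:73536747-73578672, plus strand), had 3.54 FPKM and was below Ddc in 22 of 24 mice. Slc18a2, the vesicular monoamine transporter of all these neurons (chr19:59260878-59296012, plus strand), had 3.18 FPKM and was below Slc6a3 in 18 of 24 mice.

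Tph2, the tryptophan hydroxylase of brain serotonin neurons (chr10:115078641-115185022, minus strand), had 1.92 FPKM and was below Slc18a2 in 22 of 24 mice. Dbh, the enzyme that turns dopamine into noradrenaline (chr2:27165233-27183200, plus strand), had 1.31 FPKM and was below Tph2 in 18 of 24 mice. Slc6a4, the serotonin transporter (chr11:76998603-77032340, plus strand), had 1.02 FPKM and was below Dbh in 16 of 24 mice, so the order of these neighbours turned round in 8 mice. Slc6a2, the noradrenaline transporter (chr8:92960079-93001667, plus strand), was the lowest at 0.416 FPKM and was below Slc6a4 in 21 of 24 mice. Th and Slc6a3 were thus each higher in mean level than Tph2, Slc6a4, Dbh and Slc6a2. Slc6a3 was below Th, Slc6a4 below Tph2 and Slc6a2 below Dbh, though Th serves noradrenaline synthesis as well as that of dopamine. Antisense genes overlap Ddc, Slc6a4 and Slc18a2, and none of them had more than 2 reads in any mouse. The plot of levels by mouse shows all 8 genes.

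**Figure D1:**
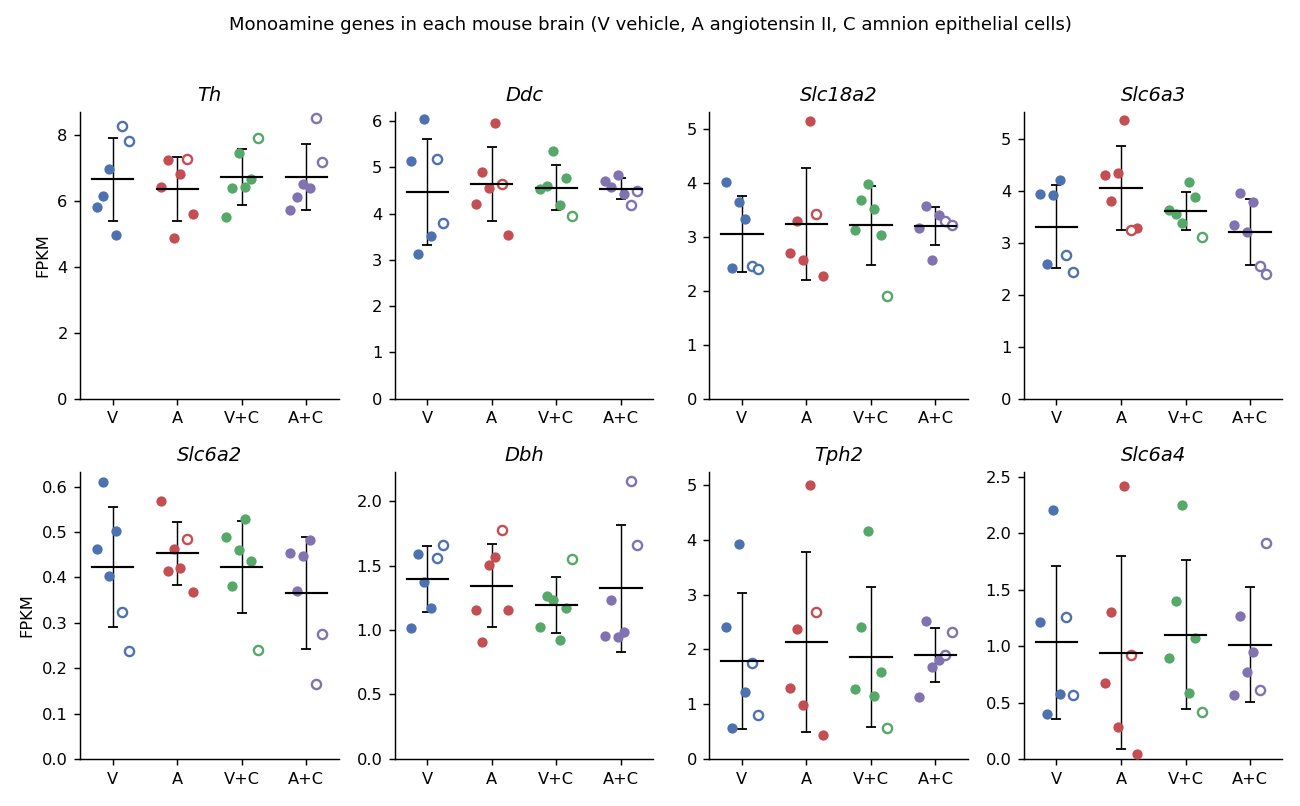
FPKM of the 8 monoamine genes (vertical axes, starting at 0) in each mouse, by group on the horizontal axis: V vehicle, A angiotensin II, C amnion epithelial cells, 6 mice a group. Points are mice, open points the 6 libraries with a high total FPKM, long lines the group means and error bars the SD. Every gene's groups overlap, and Tph2 and Slc6a4 spread most, from 0.436 to 5.01 FPKM and from 0.0444 to 2.42 FPKM.

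The serotonin genes differed more between mice of one group than the other members did. The SD of log2(FPKM + 0.1) within groups was 0.90 for Tph2 and 0.98 for Slc6a4, and 0.22 to 0.34 for the other 6 genes. Among genes within 2-fold of the same mean level, 93.3% had a smaller SD than Tph2 and 89.3% a smaller SD than Slc6a4, against 26.7% to 68.8% for the other 6. Counting error was a small part of this spread, since the within-group CV of Tph2 was 64.5% and that expected from its read numbers 11.1%, and for Slc6a4 these were 67.0% and 13.3%.

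Tph2 ranged from 0.571 to 3.93 FPKM in vehicle mice (median 1.49), from 0.436 to 5.01 FPKM in angiotensin II mice (median 1.83), from 0.561 to 4.15 FPKM in vehicle + amnion epithelial cells mice (median 1.43) and from 1.13 to 2.52 FPKM in angiotensin II + amnion epithelial cells mice (median 1.85). Slc6a4 ranged in the same order of groups from 0.396 to 2.20 FPKM (median 0.894), from 0.0444 to 2.42 FPKM (median 0.801), from 0.414 to 2.25 FPKM (median 0.984) and from 0.566 to 1.91 FPKM (median 0.861). The groups overlapped almost wholly for both genes. The mouse with the highest level in a group was the same one for both genes in the vehicle group (replicate 3), the angiotensin II group (replicate 4) and the vehicle + amnion epithelial cells group (replicate 3). The lowest Slc6a4 level came from 4 reads in angiotensin II replicate 6, which had the lowest Tph2 level as well, from 25 reads.

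Across mice, Tph2, Slc6a4, Ddc and Slc18a2 rose and fell together. Correlations were computed on deviations from the group means for the 28 pairs of members, with two-sided permutations of mice within groups and Benjamini-Hochberg adjustment over the 28 pairs. The pair Tph2 and Slc6a4 had a Pearson r of 0.94 in 24 mice (permutation p = 1e-05, the smallest these permutations can give, adjusted p = 0.00014) and a Spearman rho of 0.94 (permutation p = 1e-05), and r was 0.92 without the 2 mice farthest from the median of Tph2. In the 18 libraries of lower total FPKM r was 0.96 (adjusted permutation p = 0.00028), and 0.95 without angiotensin II replicate 4. In the 6 libraries of high total FPKM, on values not centred on group means, r was 0.75 (exact permutation p = 0.103).

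Ddc followed Tph2 with r = 0.84 in 24 mice (permutation p = 2e-05, adjusted p = 0.00014; rho = 0.79, permutation p = 0.00019) and 0.88 in the 18 libraries (adjusted permutation p = 0.00189). Ddc and Slc6a4 had r = 0.80 (permutation p = 1e-05, adjusted p = 0.00014; rho = 0.77, permutation p = 0.00027) and 0.83 in the 18 libraries (adjusted permutation p = 0.00189). Tph2 and Slc18a2 had r = 0.84 (permutation p = 2e-05, adjusted p = 0.00014; rho = 0.80, permutation p = 6e-05), 0.86 in the 18 libraries (adjusted permutation p = 0.00189) and 0.91 in the other 6 (exact permutation p = 0.00278). Leaving out the 2 mice farthest from the median of the first gene gave r of 0.80, 0.79 and 0.79 for these 3 pairs in 24 mice. All 4 genes are made by serotonin neurons, while Ddc and Slc18a2 are shared with dopamine and noradrenaline neurons.

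Slc6a4 and Slc18a2 had r = 0.73 in 24 mice (permutation p = 0.00051, adjusted p = 0.00286; rho = 0.68, permutation p = 0.00143; 0.67 without the 2 farthest mice) and 0.81 in the 18 libraries (adjusted permutation p = 0.0126). Ddc and Slc18a2 had r = 0.60 (permutation p = 0.00723, adjusted p = 0.0225; rho = 0.51, permutation p = 0.0314, adjusted p = 0.0733; 0.57 without the 2 farthest mice) and 0.71 in the 18 libraries (adjusted permutation p = 0.0230; rho = 0.60, adjusted permutation p = 0.0950), so that this pair passed by r and not by rho. Without angiotensin II replicate 4, the mouse with the highest Tph2, Slc6a4, Slc18a2 and Slc6a3 and the pituitary signal, the pair Ddc and Slc18a2 had r = 0.51 (adjusted permutation p = 0.0857) in 23 mice and 0.63 (adjusted permutation p = 0.139) in 17. The other 5 pairs of these 4 genes kept an adjusted permutation p of r of at most 0.00896 in 23 mice and 0.0174 in 17, but by rho in the 17 the pairs of Ddc with Tph2 and with Slc6a4 no longer passed (rho = 0.77 and 0.73, adjusted permutation p = 0.0563 and 0.0887). The scatter of Tph2 against the other 3 genes shows the mice of all 4 groups mixed along the same line.

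**Figure D2:**
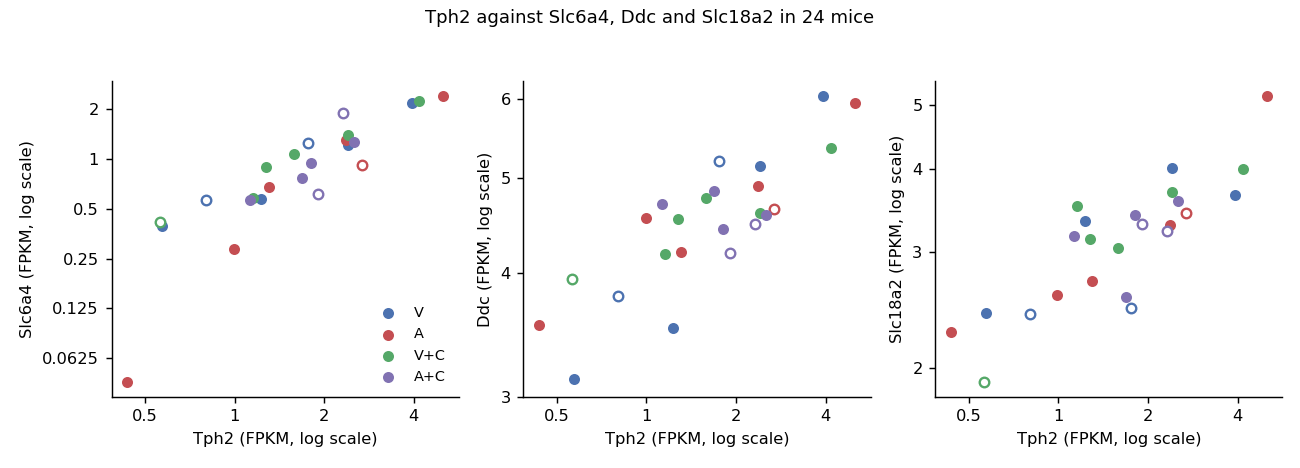
Level of Slc6a4 (left), Ddc (middle) and Slc18a2 (right) against Tph2 in each of 24 mice, in FPKM on log axes. Colours are the groups (V vehicle, A angiotensin II, C amnion epithelial cells) and open points the 6 libraries with a high total FPKM. Slc6a4 rises with Tph2 (r = 0.94 on deviations from group means), and the mice of all groups share the range.

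The sequences before the start sites of the genes that moved together are shown, with Th for comparison, because shared letters there are a first thing to look for in a set of genes that vary together. They are the 250 bases before the start in RefSeq (GRCm38.p6), written 5′ to 3′ on the strand of the gene, and 7 of the 8 members matched, with 2 start sites for Ddc. The search covered 4 motifs on both strands: TGACGTCA, the cyclic AMP response element, TATAAA, the TATA box, AAAGGTCA, a nuclear receptor element, and CCGGAAGT, an ETS factor motif. Capitals mark the matches.
Tph2: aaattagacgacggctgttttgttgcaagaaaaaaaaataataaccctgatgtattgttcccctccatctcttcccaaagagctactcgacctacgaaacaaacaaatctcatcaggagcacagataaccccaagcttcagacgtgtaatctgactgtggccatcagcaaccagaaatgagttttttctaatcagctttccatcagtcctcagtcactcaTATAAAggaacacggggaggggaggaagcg
Slc6a4: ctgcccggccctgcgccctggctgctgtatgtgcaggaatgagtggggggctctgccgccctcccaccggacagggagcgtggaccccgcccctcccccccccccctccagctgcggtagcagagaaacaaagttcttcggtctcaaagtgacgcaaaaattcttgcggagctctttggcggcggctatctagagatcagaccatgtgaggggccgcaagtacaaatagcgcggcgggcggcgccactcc
Slc18a2: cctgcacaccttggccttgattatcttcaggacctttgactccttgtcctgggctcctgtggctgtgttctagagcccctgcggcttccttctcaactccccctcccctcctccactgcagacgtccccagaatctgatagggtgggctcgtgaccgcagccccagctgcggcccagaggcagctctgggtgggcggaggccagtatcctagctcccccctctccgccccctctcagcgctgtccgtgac
Ddc: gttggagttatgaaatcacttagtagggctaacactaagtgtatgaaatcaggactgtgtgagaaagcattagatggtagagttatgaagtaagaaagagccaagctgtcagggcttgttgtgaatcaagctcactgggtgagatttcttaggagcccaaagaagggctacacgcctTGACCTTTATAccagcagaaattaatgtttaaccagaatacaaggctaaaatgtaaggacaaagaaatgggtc
Ddc: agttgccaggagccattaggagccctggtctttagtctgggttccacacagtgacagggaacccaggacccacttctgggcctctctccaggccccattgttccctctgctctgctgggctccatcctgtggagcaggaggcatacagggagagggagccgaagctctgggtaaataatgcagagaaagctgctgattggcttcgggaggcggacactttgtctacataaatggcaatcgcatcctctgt
Th: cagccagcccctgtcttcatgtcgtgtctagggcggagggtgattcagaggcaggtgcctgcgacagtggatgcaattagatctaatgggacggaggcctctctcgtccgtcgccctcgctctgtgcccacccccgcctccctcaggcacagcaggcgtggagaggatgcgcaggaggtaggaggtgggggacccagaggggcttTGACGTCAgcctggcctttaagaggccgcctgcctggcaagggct

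These windows are chr10:115185023-115185272 (minus) for Tph2, chr11:76998347-76998596 (plus) for Slc6a4, chr19:59260628-59260877 (plus) for Slc18a2, chr11:11898145-11898394 and chr11:11890409-11890658 (minus) for Ddc, and chr7:142899996-142900245 (minus) for Th. Th held TGACGTCA from 45 to 38 bases before its start, a motif in 1.55% of 32851 promoters. Tph2 held TATAAA from 30 to 25 bases before its start, a motif in 12.4% of promoters. The first window of Ddc held TATAAA on the other strand, from 68 to 63 bases before the start, where it overlaps a match to AAAGGTCA (1.34% of promoters). Slc6a4 and Slc18a2 held none of the 4 motifs, and CCGGAAGT (2.88% of promoters) was in none of the 7 members searched. No motif was in all 4 of the genes that varied together.

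The noradrenaline and dopamine genes differed with the total FPKM of the library. In the 6 libraries of high total FPKM, Th had 7.19 to 8.51 FPKM (median 7.86) against 4.86 to 7.44 FPKM (median 6.38) in the other 18, a log2 difference of 0.34 (SE 0.07; limma adjusted p = 0.000379). Dbh had 1.55 to 2.16 FPKM (median 1.66) against 0.910 to 1.59 FPKM (median 1.16), a log2 difference of 0.53 (SE 0.11; limma adjusted p = 0.000263). All 6 libraries were above the median of the 18 for both genes.

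The transporters of the same transmitters moved the other way. Slc6a3 had 2.40 to 3.24 FPKM (median 2.65) in the 6 libraries against 2.58 to 5.36 FPKM (median 3.83) in the 18, and fell by 0.41 on the log2 scale (SE 0.09; limma adjusted p = 0.000418), with 6 of 6 below the median of the 18. Slc6a2 had 0.165 to 0.485 FPKM (median 0.258) against 0.367 to 0.610 FPKM (median 0.457), and fell by 0.55 on the log2 scale (SE 0.13; limma adjusted p = 0.00069), with 5 of 6 below the median. Ddc, Tph2, Slc6a4 and Slc18a2 had log2 differences of -0.06, -0.20, -0.05 and -0.24 and did not pass the test (limma adjusted p = 0.161 to 0.934). The share of all genes tested that passed it was 53.3%, so 4 of 8 members is near the background. The mitochondrial share of reads was 6.17% to 6.85% in the 6 libraries and 4.79% to 5.75% in the 18. Its part in these differences was not tested.

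**Figure D3:**
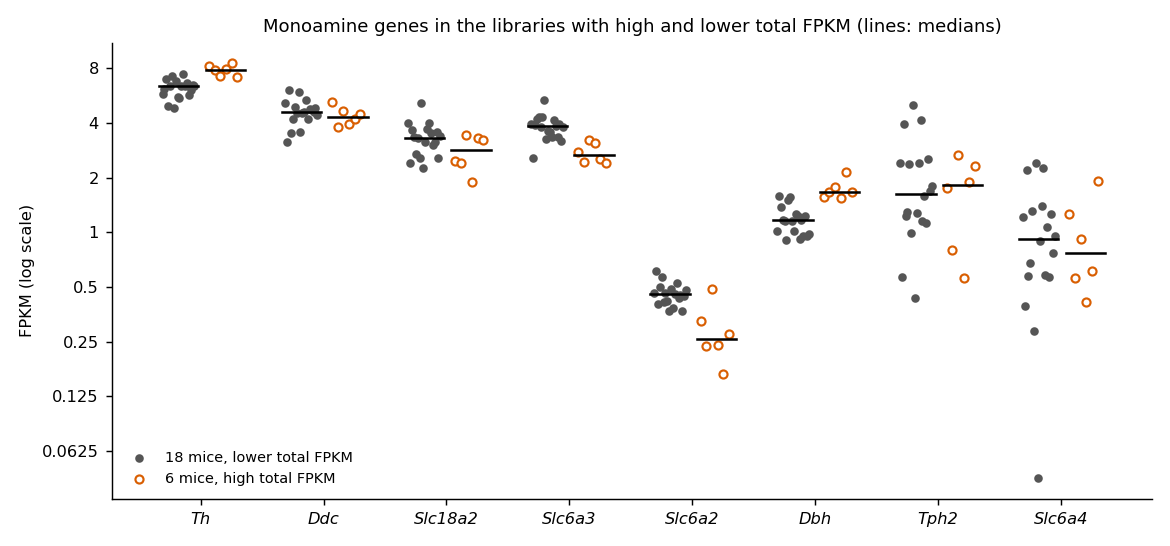
FPKM of the 8 genes (log axis) in the 18 libraries of lower total FPKM (grey) and the 6 of high total FPKM (open), with lines at the medians. Th and Dbh are higher in the 6 libraries (medians 7.86 and 1.66 FPKM) and Slc6a3 and Slc6a2 lower (2.65 and 0.258 FPKM).

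The correlations among these 4 genes followed the libraries. In 24 mice Th and Dbh had r = 0.54 (permutation p = 0.01, adjusted p = 0.0281; rho = 0.55, permutation p = 0.0111), and an r of -9.6e-05 in the 18 libraries (adjusted permutation p = 1). Th and Slc6a2 had r = -0.63 (permutation p = 0.00237, adjusted p = 0.00948; rho = -0.61, permutation p = 0.00412) and -0.12 in the 18 libraries (adjusted permutation p = 0.884). Dbh and Slc6a2, the enzyme and the transporter of noradrenaline, had r = -0.65 (permutation p = 0.00179, adjusted p = 0.00835; rho = -0.58, permutation p = 0.00782) and -0.11 in the 18 libraries (adjusted permutation p = 0.884).

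Dbh and Slc6a3 had r = -0.53 (permutation p = 0.0155, adjusted p = 0.0394; rho = -0.53, permutation p = 0.0178) and 0.02 in the 18 libraries (adjusted permutation p = 0.988), and Slc6a2 and Slc6a3 had r = 0.52 (permutation p = 0.0187, adjusted p = 0.0437; rho = 0.43, permutation p = 0.0672, adjusted p = 0.145) and -0.13 (adjusted permutation p = 0.884). Without the 2 farthest mice, r in 24 mice was 0.56, -0.59, -0.57, -0.43 and 0.34 for these 5 pairs in the order given. None of the 5 relations held within the 18 libraries. In the other 6 libraries alone, on values not centred on group means, their r was 0.31, -0.63, -0.38, -0.21 and 0.60 (exact permutation p = 0.179 to 0.754). In all, 12 of 28 pairs had an adjusted p under 0.05 in 24 mice, 9 positive and 3 negative, and 6 of 28 in the 18 libraries, all of them pairs among Tph2, Slc6a4, Ddc and Slc18a2.

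Slc6a3 and Slc18a2, the 2 carriers of dopamine neurons, were the remaining pair of the 12, with r = 0.57 in 24 mice (permutation p = 0.00481, adjusted p = 0.0168; rho = 0.55, permutation p = 0.0112; 0.52 without the 2 farthest mice). Their r was 0.71 in the 18 libraries (adjusted permutation p = 0.0544) and fell to 0.23 there without the 2 farthest mice, so that it rests on those mice. Without angiotensin II replicate 4 it was 0.48 in 23 mice (adjusted permutation p = 0.0631). Th and Slc6a3, both used as markers of dopamine neurons, had r = -0.52 (permutation p = 0.0239, adjusted p = 0.0514; rho = -0.51, permutation p = 0.0278) in 24 mice, -0.62 (adjusted permutation p = 0.0211) without angiotensin II replicate 4, and -0.04 in the 18 libraries (adjusted permutation p = 0.970).

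**Figure D4:**
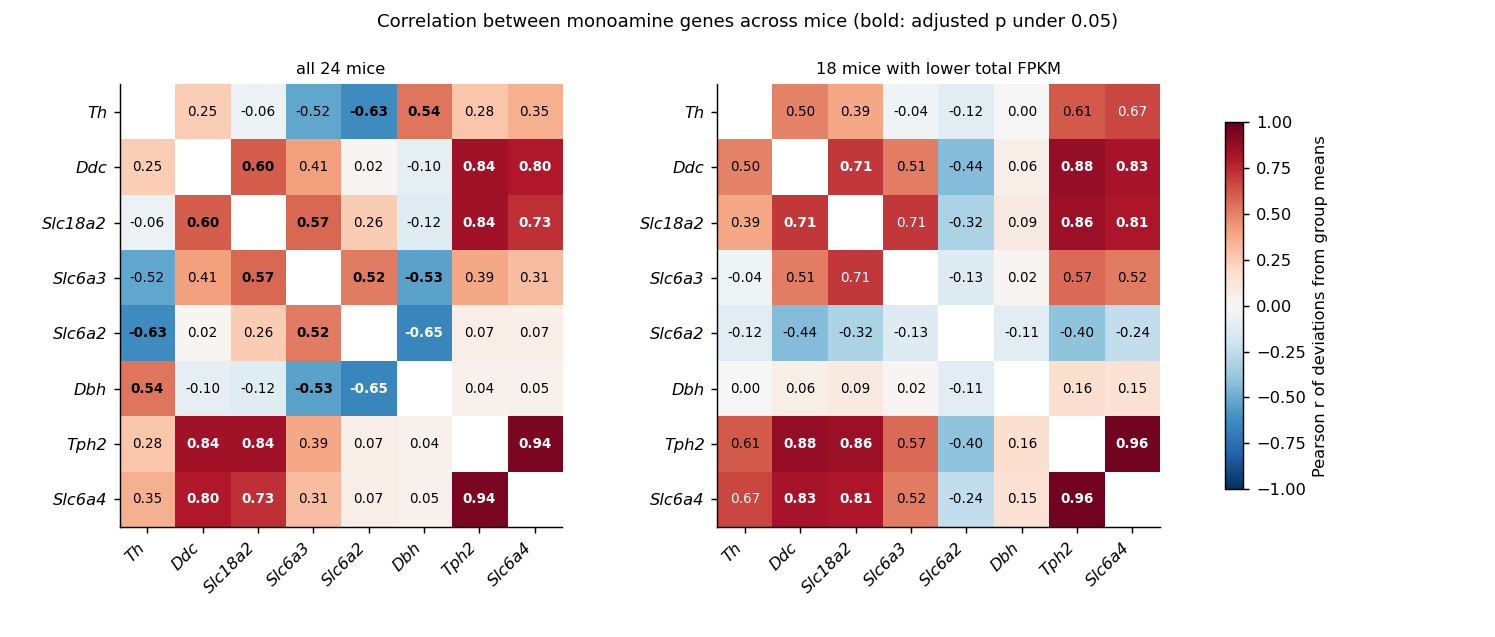
Pearson r of deviations from group means for the 28 pairs of the 8 genes, in all 24 mice (left) and in the 18 mice of lower total FPKM (right), from -1 in blue to 1 in red, with bold numbers where the adjusted permutation p was under 0.05. The block of Tph2, Slc6a4, Ddc and Slc18a2 is positive in both panels, while the negative values of Th and Dbh with Slc6a2 (-0.63 and -0.65) shrink to -0.12 and -0.11.

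The genes whose level was most like that of a member, by r over deviations from group means among 15556 genes with a mean of at least 20 reads, are given as a description. For Slc6a4 they were Tph2 (r = 0.94), Dlk1 (0.80), Ddc (0.80), Otp (0.80) and Igsf1 (0.77) in 24 mice, and the same 5 genes had r of 0.83 to 0.96 in the 18 libraries. Otp is a transcription factor of the hypothalamus. For Slc6a3 they were Pgrmc1 (0.87), Zc3hav1 (0.84), Impact (0.83), Sox1ot (0.83) and Scg2 (0.83), with 0.64 to 0.87 in the 18 libraries. For Th they were Rcor2 (0.92), Kmt5c (0.87), Taf12 (0.87), Grin2d (0.86) and Pnrc1 (0.86), and for Dbh Pa2g4 (0.89), Gm19938 (0.87), Rab4a (0.87), Gamt (0.86) and Anp32a (0.86), all lower in the 18 libraries, at 0.65 to 0.85. None of the other 7 members was among the 5 closest genes of Slc6a3, Th or Dbh in 24 mice or in a ranking over the 18 libraries, where Pcbd1, of the cofactor genes, was the fifth for Slc6a3 (r = 0.78, against -0.33 in 24 mice).

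Tph2, Slc6a3, Dbh and Th were also related to 104 genes of the pathway and of brain regions and cell types, 416 relations in all. In 24 mice, 135 of the 416 had an adjusted permutation p under 0.05: 44 of 104 for Slc6a3, 44 for Dbh, 42 for Th and 5 for Tph2. In the 18 libraries 0 of 416 did. Of the 10 markers of brain cells, 8 were among those of each of Slc6a3, Dbh and Th in 24 mice, and 0 of Tph2. Fev, the transcription factor that defines serotonin neurons, had r = 0.56 with Tph2 in 24 mice (adjusted permutation p = 0.0227; rho = 0.65) and 0.67 in the 18 libraries (adjusted permutation p = 0.151). En1, a transcription factor of the midbrain and hindbrain, had r = 0.64 with Tph2 in 24 mice (adjusted permutation p = 0.00845, rho = 0.66) and 0.82 in the 18 libraries (adjusted permutation p = 0.127). Fev was the 1 gene that passed in 24 mice among 5 serotonin neuron transcription factors, whose median r with Tph2 was 0.30. Likewise En1 was the 1 gene that passed among 8 dopamine neuron transcription factors, with a median of 0.18. Rgs9, a striatum marker, had r = -0.65 with Tph2 in 24 mice (adjusted permutation p = 0.0126; rho = -0.67) and -0.61 in the 18 libraries (adjusted permutation p = 0.475). Ppp1r1b and Adora2a, which also mark the striatum, had r of -0.34 and -0.35 with Tph2 in 24 mice (adjusted permutation p = 0.261 and 0.222) and -0.52 and -0.43 in the 18 libraries. The median r of Tph2 was 0.35 over 4 pituitary genes (0.44 in the 18 libraries) and 0.33 over 3 olfactory bulb genes (0.49). It was 0.21 over 5 hypothalamus genes (0.43), 0.08 over 7 hindbrain genes (-0.0051) and -0.12 over 4 cerebellum genes (-0.25). Over the 4 striatum genes it was -0.48 (-0.56), and 2 of the 4 passed in 24 mice and 0 in the 18 libraries. Whether the regions held by each hemisphere differed between mice was not tested beyond these values.

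No treatment changed any of the 8 genes at an adjusted p under 0.05. The test was limma, fitted on the log2(FPKM + 0.1) values of all 27286 genes, and the lowest adjusted p of a member was 0.931, in the interaction of angiotensin II and the cells. No gene of the 27286 passed that threshold in any of the 5 comparisons. The paper used another method, DESeq, and its methods state an adjusted p under 0.05. The legend of its volcano plots gives a p-value under 0.05 and does not name an adjustment, so the threshold may differ as well. The paper reported differentially expressed genes in angiotensin II against vehicle and after the cells under angiotensin II. The 4 pairwise comparisons were also made with exact permutation tests of 6 against 6 mice for each gene, and 0 of 32 had p under 0.05. The nearest to a difference was the dopamine transporter.

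Slc6a3 had 2.43 to 4.2 FPKM in vehicle mice (median 3.34), 3.24 to 5.36 FPKM in angiotensin II mice (median 4.04), 3.10 to 4.16 FPKM in vehicle + amnion epithelial cells mice (median 3.59) and 2.40 to 3.95 FPKM in angiotensin II + amnion epithelial cells mice (median 3.27). The angiotensin II group held the highest mean, 4.05 FPKM ± 0.80 (SD, n = 6 mice), and all 4 groups overlapped. Against vehicle (3.30 FPKM ± 0.79), angiotensin II mice had a log2 difference of 0.30 (SE 0.15, limma p = 0.0628 over n = 24 mice, adjusted p = 0.994, exact permutation p = 0.123). Against angiotensin II alone, mice that also had cells (3.20 FPKM ± 0.63) had a log2 difference of -0.33 (SE 0.15, 95% interval -0.65 to -0.02, limma p = 0.0401 over n = 24 mice, adjusted p = 1, exact permutation p = 0.0736). These 2 comparisons share the angiotensin II mice, so a high value in that group enters both. The difference after cells without angiotensin II was 0.15 (limma p = 0.326 over n = 24 mice, adjusted p = 0.995), and the interaction, the effect of the cells under angiotensin II less that under vehicle, was -0.49 (SE 0.22, 95% interval -0.93 to -0.04, limma p = 0.0345, adjusted p = 0.931).

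Angiotensin II replicate 4 had the highest Slc6a3 of all 24 mice, and without it (n = 23 mice) the differences in the first 2 comparisons and the interaction were 0.21 (limma p = 0.173), -0.25 (limma p = 0.118) and -0.40 (limma p = 0.0703). With the library set as a term (n = 24 mice) they were 0.23 (limma p = 0.0477), -0.26 (limma p = 0.0250) and -0.35 (limma p = 0.0367), and in the 18 libraries alone (n = 18 mice) 0.20 (limma p = 0.156), -0.22 (limma p = 0.126) and -0.26 (limma p = 0.194). In those 18, Slc6a3 was 3.66 FPKM ± 0.73 (SD, n = 4 mice) after vehicle, 4.21 ± 0.78 (n = 5) after angiotensin II, 3.71 ± 0.31 (n = 5) after vehicle + amnion epithelial cells and 3.57 ± 0.36 (n = 4) after angiotensin II + amnion epithelial cells. Adjusted p was at least 0.620 for every member in every fit run.

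Counted by the unadjusted p under 0.05, 0 of 8 members passed in angiotensin II against vehicle, where 2.21% of all genes did. With the cells added to angiotensin II, 1 of 8 did (2.54% of all genes), and the same holds for the interaction (2.54%). For the cells under vehicle and for angiotensin II under the cells, 0 of 8 did (2.41% and 2.66% of all genes). No member had groups that did not overlap, which 0.0623%, 0.099%, 0.0623% and 0.0843% of all genes had in the 4 pairwise comparisons. The median log2 difference of the 8 members was 0.07, 0.01, 0.06 and -0.0011 in these comparisons, against 0.02, -0.02, 0.01 and -0.01 over all genes.

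The 95% intervals differed in width between the genes. For Th, which ranged from 4.96 to 8.27 FPKM in vehicle mice and 4.86 to 7.27 FPKM in angiotensin II mice, the 95% intervals of the fold over the 4 pairwise comparisons ran from 0.803 to 1.27. For Ddc they ran from 0.819 to 1.27, for Slc18a2 from 0.783 to 1.36, for Dbh from 0.657 to 1.4 and for Slc6a2 from 0.607 to 1.46. The intervals of the serotonin genes were wider, from 0.521 to 2.36 for Tph2 and from 0.346 to 3.02 for Slc6a4. Over n = 24 mice, the lowest and highest log2 differences of members were Slc6a4 at -0.42 (limma p = 0.437) and Slc6a3 at 0.30 in angiotensin II against vehicle, and Slc6a3 at -0.33 and Slc6a4 at 0.49 (limma p = 0.370) after the cells under angiotensin II. The Slc6a4 values rest on angiotensin II replicate 6, with its 4 reads: without that mouse they were 0.05 and 0.02. For the cells under vehicle (n = 24 mice in this fit) the range was from Dbh at -0.21 (limma p = 0.294) to Slc6a3 at 0.15, for angiotensin II under the cells from Slc6a2 at -0.19 (limma p = 0.366) to Tph2 at 0.23 (limma p = 0.646), and for the interaction from Slc6a3 at -0.49 to Slc6a4 at 0.38 (limma p = 0.621).

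**Figure D5:**
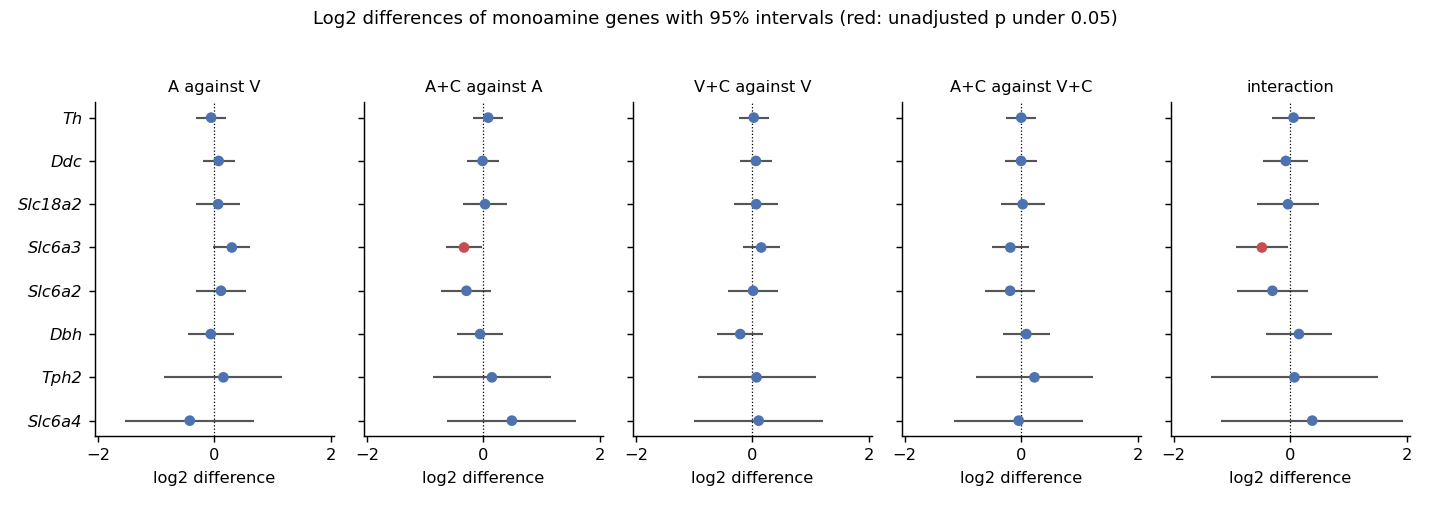
Log2 differences of the 8 genes (points) with 95% intervals (lines) in the 5 comparisons, on log2(FPKM + 0.1): V vehicle, A angiotensin II, C amnion epithelial cells. Red points have an unadjusted limma p under 0.05, which only Slc6a3 has, at -0.33 in A+C against A and at -0.49 in the interaction.

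No other gene of the monoamine pathway passed the test either. These were 62 genes for the tetrahydrobiopterin cofactor of the hydroxylases, breakdown of the amines, other enzymes and carriers, the transcription factors of the 3 kinds of neuron, and the receptors, of which 61 were tested and Hand1 was listed at 0 in all mice. By the unadjusted p, 0 of 61 passed in angiotensin II against vehicle, and 2 of 61 (3.28%) passed after the cells under angiotensin II. These were, over n = 24 mice, En1 at a log2 difference of 0.57 (limma p = 0.0205, adjusted p = 1) and Tph1, the tryptophan hydroxylase of the pineal gland and gut, at -0.32 (limma p = 0.0327, adjusted p = 1), which had a mean level under 0.1 FPKM. Foxa1, a transcription factor of dopamine neurons, had a log2 difference of 0.49 (limma p = 0.0209 over n = 24 mice, adjusted p = 0.995) after the cells under vehicle, and 0 of 61 passed in the other 2 comparisons.

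The receptors did not pass in any comparison: 5 genes for dopamine, 14 for serotonin and 9 for adrenaline and noradrenaline. Their summed level was 18.8 to 28 FPKM, 19.4 to 27.9 FPKM and 46.1 to 62.3 FPKM per mouse, and that of the 8 members 16.7 to 32.7 FPKM. The cofactor genes, among them Gch1 and Qdpr, summed to 105 to 177 FPKM, and none of the 6 had an unadjusted p under 0.05 in any comparison.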

How the data were processed

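The authors mapped the reads to the mouse genome (GRCm38, mm10 per the labels) with Ensembl genes and deposited FPKM values per gene and mouse, and their notes name DESeq 1.10.1; the aligner and the use of strand are not given in the sources used here. Reads were recovered as FPKM times the gene length the authors deposited, divided by the value of 1 read, which was estimated in each library. The results were whole numbers within 0.1 for 100% of values up to 2000 reads. Members and lists were chosen with earlier results of these data known. Genes above 0 FPKM in at least 6 of 24 mice (27286) were tested with limma 3.58.1 (R 4.3.3), with trend, on log2(FPKM + 0.1) in 1 fit of 4 groups, with Benjamini-Hochberg adjustment. The labels give 1 sample a mouse and do not say whether mice shared a litter or cage. Exact permutation tests and 100000 permutations within groups were made with numpy 2.4.6 and scipy 1.17.1. In data simulated for angiotensin II against vehicle (28490 genes), 19 of 67 genes changed 1.5-fold, 58 of 67 changed 2-fold and 65 of 66 changed 4-fold were called, with 9 unchanged genes. The simulation gave every gene the same dispersion and no difference between library sets. It therefore cannot say what would be called for genes as variable as Tph2 and Slc6a4, with within-group CVs of 64.5% and 67.0%. Named genes were the 8 members, list genes with unadjusted p under 0.05 or compared with a member, and the 5 genes closest to each of 4 members. Alternatives were a pseudocount of 1 or 0.01, no filter, a filter at a mean of 1 FPKM, a fit of the compared groups alone, a replicate block, median-ratio rescaling, limma voom on recovered reads, array weights, the library set, the 18 libraries and each mouse left out. Some genes of the lists are not reported here.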

Additional observations from a re-analysis of the deposited data

Results flagged for a closer look

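Slc18a2 stood apart in 2 mice, from the gap of 1 mouse to the others of its group: vehicle + amnion epithelial cells replicate 6, at 1.9 FPKM, was below the other 5 mice, and angiotensin II + amnion epithelial cells replicate 3, at 2.56 FPKM, was below its other 5 mice. The first is also among the libraries of high total FPKM. With 32 groups tested, chance flags about 1 in 20, and 2 were flagged. The effect of the cells on Slc6a3 differed between angiotensin II and vehicle mice by the interaction term, at -0.49 on the log2 scale (limma p = 0.0345 over n = 24 mice), and its adjusted p of 0.931 did not pass.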

How the results depend on the processing

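No member had an adjusted p under 0.05 under any alternative. Of the unadjusted calls, the count of members in angiotensin II against vehicle went from 0 to 1 (Slc6a3) with the replicate block and with the library set as a term. The counts after the cells under angiotensin II and in the interaction went from 1 to 0 with array weights and in the 18 libraries of lower total FPKM. With a mouse left out, each of these 3 counts ranged from 0 to 1, since Slc6a3 passed in angiotensin II against vehicle when 1 of 3 vehicle mice (replicates 1, 3 and 4) or 1 of 2 angiotensin II mice (replicates 5 and 6) was absent. It no longer passed after the cells when any of replicates 1, 3 and 4 of angiotensin II or replicates 3, 5 and 6 of angiotensin II + amnion epithelial cells was absent, and in the interaction with 10 of the 24 mice left out in turn. The count of the 32 exact tests under 0.05 ranged from 0 to 1, with 1 when replicate 5 or 6 of angiotensin II, or replicate 2 of angiotensin II + amnion epithelial cells, was absent.

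Over the 8 members and 5 comparisons, 30 log2 differences changed sign under at least 1 alternative. In the main fit these were at most 0.42 in absolute value, with limma p of at least 0.310. The log2 difference of Tph2 between angiotensin II + amnion epithelial cells and vehicle + amnion epithelial cells mice was -0.088 with array weights, -0.13 in the 18 libraries and -0.037 to 0.50 with a mouse left out. That of Slc6a4 ranged from -0.78 to 0.046 in angiotensin II against vehicle and from -0.090 to 0.74 in the interaction, with the change of sign without angiotensin II replicate 6. The cause was not tested. Called pairs numbered 12 in 24 mice, 6 in the 18 libraries, 5 there without angiotensin II replicate 4, and 7 to 13 with a mouse left out of the 24, the 7 without vehicle + amnion epithelial cells replicate 6 or angiotensin II + amnion epithelial cells replicate 5. The r of Th and Dbh was -9.6e-05, of Dbh and Slc6a3 0.018 and of Slc6a2 and Slc6a3 -0.13 in the 18 libraries.

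The main fit did not pair mice by replicate number, since the labels do not say what mice of one number shared. Same-number mice of different groups were more alike (median correlation 0.35, against 0.07 for different numbers), with 28 of 36 pairs over 0.1. The p-values of the main fit leave this likeness out. All libraries of high total FPKM were replicate 5 or 6, and their part in it was not tested. The mean correlation of a mouse with the mice of each number in the other groups was also taken. It was highest for the mouse's own number in 5 of 24 mice, with 6 numbers to choose among. With the replicate block, Slc6a3 had limma p = 0.00859, 0.00415 and 0.00327 over n = 24 mice in angiotensin II against vehicle, after the cells under angiotensin II and in the interaction. All genes with an unadjusted p under 0.05 went with the block from 604 to 950 in the first and from 692 to 1416 in the last. They were 93 to 136 over the 5 comparisons among genes with a mean of at least 1 FPKM, where fewer genes were tested, 1254 to 1331 with array weights and 1053 to 1259 in the 18 libraries. The adjusted test called 1 gene with array weights and 1 without vehicle + amnion epithelial cells replicate 1. Depth weighed most on Dbh and Slc6a2, with 45 to 123 and 22 to 84 reads per mouse, whose variance within groups was 4.03 and 4.27 times that of counting.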
